A study of Mus musculus with 12 samples.

Results

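The genes described here are 43 genes of fatty acid uptake, activation and oxidation in the mouse heart. They were chosen by symbol from what their products do, with earlier results of these data known. All 43 were found among the 21705 genes in the files. The data are polyA RNA-seq of heart tissue from 12 libraries of female FVB mice, with 3 libraries in each of 4 groups. The control group was given water, for a time the labels do not state, and the other groups were given a kinase inhibitor for 14 days. Sunitinib, a multikinase inhibitor of VEGF, PDGF and KIT receptors, was given at 40 mg/kg/day. Sorafenib, which blocks RAF as well as VEGF receptors, was given at 30 mg/kg/day, and the EGFR inhibitor erlotinib at 50 mg/kg/day. The drugs were given at different doses, so differences between drugs are between these treatments and not between matched doses. By its title, the study profiled kinases and RNA to see what each drug does to cardiac tissue.

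The heart takes most of its energy from fatty acids. They enter the cardiomyocyte through transporters such as CD36, are bound by FABP3, joined to coenzyme A by acyl-CoA synthetases, carried into mitochondria by the carnitine shuttle and shortened in the cycle of beta-oxidation. The nuclear receptors PPARA, PPARD and PPARG act with RXRA on many of these genes. PDK4, which inactivates pyruvate dehydrogenase, and UCP3 are well known genes that fasting and fatty acids induce through these receptors.

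The libraries held 14304529 to 16534769 expected counts (estimated reads per gene, fractional where a read fits several genes). Of 13440 genes abundant enough to test, all 43 members were among them. The 10 markers listed for ventricular cardiomyocytes summed to between 100690 and 111740 CPM in every library. CPM are counts scaled to a common library total, TMM-normalised for single genes but not for sums of markers. Markers of the atrium differed within groups: their score (the mean log2 difference from each gene's mean over the libraries) was 0.68 to 1.18 in control, 1.36, 1.68 and -1.68 with sunitinib, -1.95, 1.13 and -1.88 with sorafenib and 0.88, -0.55 and -1.84 with erlotinib. In bulk tissue, fewer cells of a type and less RNA per cell cannot be told apart. The labels do not say outright that each library is a separate animal, so p values measure the spread between these libraries.

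Of the 6 comparisons between groups, members passed in 1. Acot1 and Cpt1a were higher with sunitinib than with erlotinib, and no member passed between any drug and control in edgeR. The results turn on Acot1, a cytosolic acyl-CoA thioesterase, the carnitine palmitoyltransferase Cpt1a, and the PPAR targets Pdk4 and Ucp3, which varied within groups. For these 4 genes the 250 bases before the transcription start follow, to show the sequence next to the starts of the members that differed and of the PPAR targets with the widest spread. They are the RefSeq promoters of build GRCm38.p6, at chr12:84009252-84009501 (Acot1), chr19:3323051-3323300 (Cpt1a) and chr7:100472741-100472990 (Ucp3) on the + strand and chr6:5496279-5496528 (Pdk4) on the - strand. Capitals mark the hexamer AGGTCA of nuclear receptor sites, on either strand, and its direct repeat AGGTCANAGGTCA with at most 2 mismatches.
Acot1: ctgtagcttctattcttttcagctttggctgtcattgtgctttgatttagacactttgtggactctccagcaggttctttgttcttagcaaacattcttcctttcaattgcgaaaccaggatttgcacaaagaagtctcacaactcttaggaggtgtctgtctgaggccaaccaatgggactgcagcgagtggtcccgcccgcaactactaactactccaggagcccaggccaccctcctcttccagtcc
Cpt1a: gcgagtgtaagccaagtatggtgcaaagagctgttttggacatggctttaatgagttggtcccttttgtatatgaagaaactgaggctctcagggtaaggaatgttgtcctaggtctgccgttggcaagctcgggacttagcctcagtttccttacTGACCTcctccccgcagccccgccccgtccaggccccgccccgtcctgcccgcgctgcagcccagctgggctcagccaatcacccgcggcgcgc
Pdk4: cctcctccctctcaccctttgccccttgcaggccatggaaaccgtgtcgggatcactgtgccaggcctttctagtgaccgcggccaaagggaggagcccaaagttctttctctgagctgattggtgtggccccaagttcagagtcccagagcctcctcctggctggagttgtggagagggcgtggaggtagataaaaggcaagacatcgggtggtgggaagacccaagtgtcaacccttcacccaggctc
Ucp3: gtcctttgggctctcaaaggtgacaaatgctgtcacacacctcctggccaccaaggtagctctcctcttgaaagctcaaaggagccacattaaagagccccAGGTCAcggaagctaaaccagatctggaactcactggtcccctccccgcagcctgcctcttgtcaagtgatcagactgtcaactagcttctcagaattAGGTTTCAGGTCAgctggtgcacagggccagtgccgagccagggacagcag
The Acot1 and Pdk4 windows held neither motif. Cpt1a held the hexamer on the opposite strand, 94 to 89 bases before the start. Ucp3 held it at 149 to 144 and at 44 to 39 bases before the start, the latter inside a direct repeat at 51 to 39. Of the 43 members, 36 had a promoter in the table, with 44 promoters in all, since some genes have several. The hexamer was in 22.7% of these and in 14.0% of all 32851 promoters of the same length, and the direct repeat, which contains or nearly contains the hexamer, in 11.4% and 3.24%. The repeat was found before Cd36, Echs1, Etfa, Rxra and Ucp3. These are matches of letters and do not show binding.

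The members spanned a wide range in control hearts. On the TPM scale, which divides by transcript length and so allows levels of different genes to be compared, the fatty acid binding protein Fabp3 was at 5093 ± 471 (SD, n = 3), rank 10 of all genes in the files. The lowest was the acyl-CoA synthetase Acsl3 at 1.82 ± 0.13. Enzymes of mitochondrial beta-oxidation ran from rank 2 to rank 25 of the 43 members, with genes of other roles among them. The highest was Acadm, the medium-chain acyl-CoA dehydrogenase, at 918 ± 44.6 TPM, and the lowest Eci2, an enoyl-CoA isomerase, at 113 ± 6.49. Ehhadh, the bifunctional enzyme of peroxisomal beta-oxidation, was at 5.60 ± 1.81 TPM. The 4 nuclear receptors were among the less abundant members, with Ppard at 14.5 ± 1.55, Rxra at 13.0 ± 1.54, Ppara at 12.5 ± 2.22 and Pparg at 7.16 ± 0.94 TPM. The ranges of mean ± SD of Ppard, Rxra and Ppara overlapped, and Pparg lay below them.

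**Figure D1:**
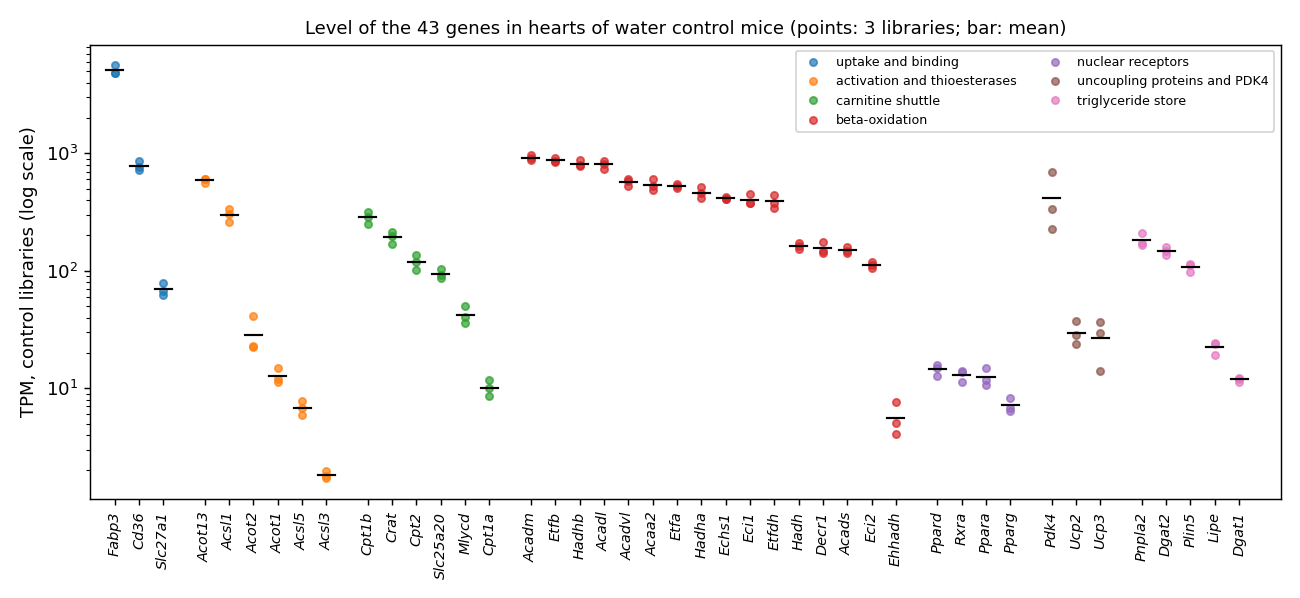
Level of each of the 43 members in the control libraries, in TPM on a log axis, ordered by role (points, 3 libraries; bars, mean). Fabp3 is highest at 5093, beta-oxidation enzymes other than Ehhadh lie between 113 and 918, and Acsl3 is lowest at 1.82.

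In 4 of the 5 gene families compared, 1 form carried most of the transcript in each control library, and for Ucp2 and Ucp3 the leading form differed between libraries. Cpt1b, the muscle form of carnitine palmitoyltransferase, made up 96.4% to 96.7% of the summed TPM of Cpt1a and Cpt1b in control. Acsl1 made up 93.6% to 94.1% of the 5 long-chain acyl-CoA synthetase genes. Dgat1, which like Dgat2 completes triglyceride synthesis, made up 7.14% to 8.08% of the Dgat1 and Dgat2 sum. Ucp3 made up 60.8%, 44.3% and 33.1% of the Ucp2 and Ucp3 sum in the 3 control libraries. Against control, the share of Cpt1b with erlotinib (97.1% to 97.4%) and that of Dgat1 (9.14% to 9.24%) did not overlap. Both gave an exact permutation p of 0.1, two-sided, the smallest that 3 against 3 allows, and an adjusted p of 0.5 over 15 comparisons of shares.

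No member passed between any drug and control in edgeR's quasi-likelihood test at a Benjamini-Hochberg adjusted p under 0.05 over all 13440 genes. For sunitinib 0 of 43 passed, against 0.0% of all genes, 2 were at an unadjusted p under 0.05 (10.9% of all genes), and DESeq2 (0.489% of all genes) and limma on the authors' scaled signal (0.0%) also called 0. For sorafenib 0 of 43 passed, against 0.00744% of all genes, 3 were at an unadjusted p under 0.05 (12.4%), and DESeq2 (0.937%) and limma (0.0298%) called 0. For erlotinib 0 of 43 passed, against 0.29% of all genes, 5 were at an unadjusted p under 0.05 (15.6%), DESeq2 called 1, Acot1 (2.03%), and limma 0 (0.365%). The 3 comparisons share the control libraries. Here and below, shares of all genes were taken over 13440 genes in edgeR and limma. Those in DESeq2 were over 17604 genes, with no filter on low counts and genes without an adjusted p counted as not passing. The median size of the log2 fold change over the members was 0.06 with sunitinib, 0.09 with sorafenib and 0.10 with erlotinib, and 0.12, 0.12 and 0.13 over all genes tested.

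**Figure D2:**
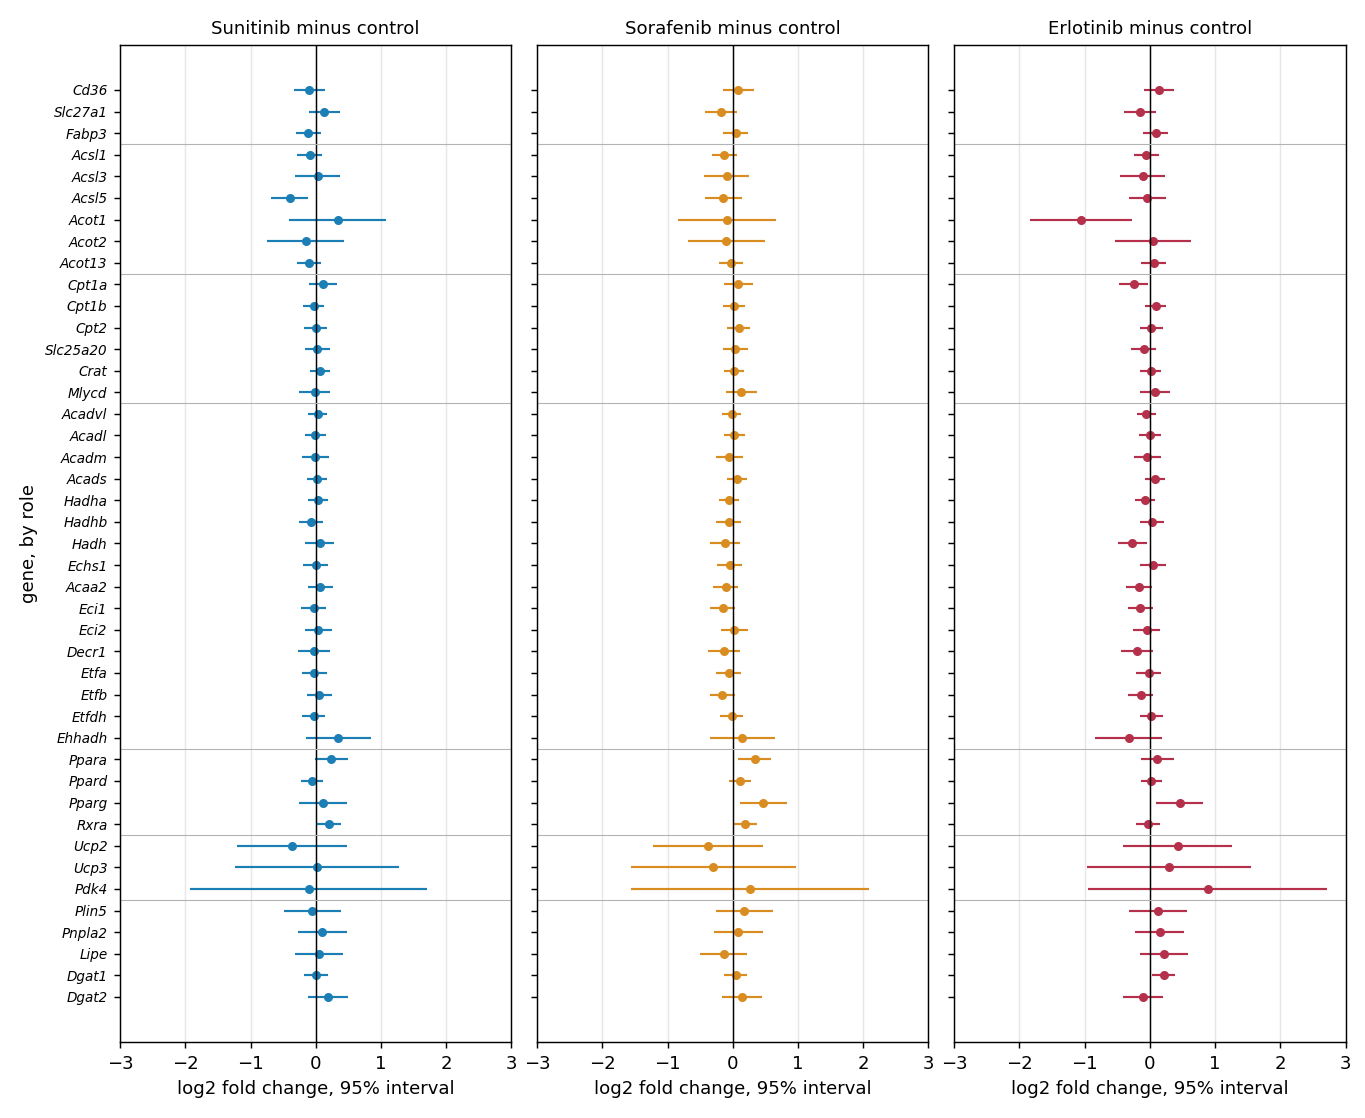
Log2 fold change of each member for each drug against control, with the 95% interval of the edgeR fit, ordered by role. Most points lie close to 0 with short intervals, whereas those of Acot1, Acot2, Ucp2, Ucp3 and Pdk4 are wide.

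The enzymes of mitochondrial beta-oxidation stayed close to control. For the 15 genes that carry an acyl chain through the cycle and pass its electrons to the respiratory chain, log2 fold changes ran from -0.07 to 0.07 with sunitinib, from -0.16 to 0.06 with sorafenib and from -0.27 to 0.08 with erlotinib. All 15 intervals lay within 0.5 of 0 on the log2 scale for each drug. The widest bounds were -0.49 for Hadh with erlotinib and 0.29 for Hadh with sunitinib. Acadm was at 1748, 1746 and 1556 CPM in control, 1482, 1596 and 1954 with sunitinib, 1705, 1499.6 and 1652 with sorafenib and 1655, 1603 and 1645 with erlotinib. The 4 groups overlapped, and the widest spread was among the sunitinib libraries. Its log2 fold change was -0.01 ± 0.10 with sunitinib, -0.06 ± 0.10 with sorafenib and -0.04 ± 0.10 with erlotinib (edgeR adjusted p = 0.993, 0.854 and 0.880). Hadh, the short-chain hydroxyacyl-CoA dehydrogenase, was at 298, 287 and 268 CPM in control and at 237, 236 and 235 with erlotinib. Every erlotinib library was below every control library (log2 -0.27 ± 0.10, edgeR adjusted p = 0.244), so Hadh was lower in the means but did not pass. Acaa2, the thiolase of the cycle, was at -0.17 ± 0.09 and Decr1, a reductase needed for unsaturated acids, at -0.20 ± 0.12 (log2, erlotinib against control; edgeR adjusted p = 0.406 and 0.443), with groups that overlapped.

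Uptake genes did not pass either. The transporter Cd36 was at 3014, 2935 and 2386 CPM in control, 2315, 2660.2 and 2819.7 with sunitinib, 3318, 2735 and 2800.0 with sorafenib and 3183, 2868 and 3126 with erlotinib. The sunitinib libraries were all below the erlotinib libraries, and each drug group overlapped control. Its log2 fold change from control was -0.10 ± 0.11, 0.09 ± 0.11 and 0.14 ± 0.11 for sunitinib, sorafenib and erlotinib (edgeR adjusted p = 0.790, 0.787 and 0.578). Fabp3 followed at -0.11 ± 0.09, 0.04 ± 0.09 and 0.09 ± 0.09 (edgeR adjusted p = 0.685, 0.885 and 0.681). The sorafenib values of both changed sign without Control_1367, to -0.011 for Cd36 and -0.039 for Fabp3. Fabp3 was at 3256, 3052 and 2636 CPM in control, 2941, 2805 and 2518 with sunitinib, 3256, 3079 and 2875 with sorafenib and 3246, 3060.0 and 3213 with erlotinib. As for Cd36, only the sunitinib and erlotinib libraries did not overlap. Slc27a1, a fatty acid transport protein, was at 198, 170.2 and 158 CPM in control, 178, 199 and 199 with sunitinib, 184, 131 and 149.9 with sorafenib and 164, 151 and 158 with erlotinib. The sunitinib libraries lay above the erlotinib libraries, and 1 sorafenib library lay among those of sunitinib.

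Of the acyl-CoA synthetases, Acsl1, the main form of the heart, was at 1247, 1076 and 1070.1 CPM in control, 993, 1122 and 1069.5 with sunitinib, 1133, 955 and 1011 with sorafenib and 1030.3, 1173 and 1066 with erlotinib. The groups overlapped, with log2 fold changes of -0.09 ± 0.09, -0.13 ± 0.09 and -0.05 ± 0.09 for sunitinib, sorafenib and erlotinib (edgeR adjusted p = 0.756, 0.576 and 0.826). Acsl5 was at 21.3, 20.6 and 23.1 CPM in control and at 20.2, 14.7 and 14.3 with sunitinib. All 3 sunitinib libraries were below control, 1 of them only just (log2 -0.40 ± 0.13, edgeR adjusted p = 0.319). Acsl5 had the smallest p of any member for sunitinib.

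Acot1 (Entrez 26897) frees fatty acids from coenzyme A in the cytosol and is a known PPARA target. It was at 23.4, 20.8 and 16.0 CPM in control, 21.6, 33.9 and 20.4 with sunitinib, 28.9, 15.3 and 12.2 with sorafenib and 10.0, 12.0 and 6.68 with erlotinib. All erlotinib libraries lay below all others, whereas the other groups overlapped. Between sunitinib and erlotinib it was 2.64-fold higher with sunitinib (log2 1.40 ± 0.35, 95% interval 0.62 to 2.18, edgeR adjusted p = 0.0310). Against control, erlotinib differed by -1.06 ± 0.35 on the log2 scale (edgeR adjusted p = 0.202; DESeq2 adjusted p = 0.0326). Sunitinib differed from control by 0.34 ± 0.33 (edgeR adjusted p = 0.763) and sorafenib by -0.09 ± 0.34 (edgeR adjusted p = 0.942).

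Acot2 (Entrez 171210), the mitochondrial relative of Acot1, did not show the same order of groups. It was at 88.7, 53.1 and 46.7 CPM in control, 58.7, 65.3 and 45.1 with sunitinib, 78.5, 50.0 and 47.5 with sorafenib and 60.7, 65.6 and 69.0 with erlotinib. All groups overlapped control, and the erlotinib value was 0.05 ± 0.26 on the log2 scale (edgeR adjusted p = 0.949). Of the summed TPM of both genes, Acot1 made up 26.8% to 35.2% in control, 33.6% to 42.0% with sunitinib, 26.8% to 34.0% with sorafenib and 11.9% to 20.2% with erlotinib. The erlotinib shares did not overlap control (exact permutation p = 0.1, two-sided, the smallest possible; adjusted p = 0.5 over 15 comparisons).

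The transcripts of both genes are alike, and reads can fit either. In the GENCODE M21 transcripts, 19.4% of the 75-base stretches of Acot1 were also in Acot2, and the expected counts of both were fractional in 100% of libraries, so the split between them is an estimate. With their counts added into 1 gene, an alternative chosen after the data were seen, sunitinib and erlotinib differed by 0.13 ± 0.27 on the log2 scale (edgeR adjusted p = 0.798) and erlotinib and control by -0.15 ± 0.27 (adjusted p = 0.843). The mean of Acot2 was 62.9 CPM in control and 65.1 with erlotinib, against 20.1 and 9.59 for Acot1. The sum thus follows mostly Acot2 and does not test whether the split shaped the Acot1 values.

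Cpt1a (Entrez 12894), the liver form of the enzyme that commits long-chain acids to the mitochondrion, was at 50.6, 40.8 and 41.2 CPM in control and at 45.3, 54.5 and 43.4 with sunitinib. It was at 49.2, 43.8 and 47.8 CPM with sorafenib and at 37.0, 37.9 and 36.7 with erlotinib. The erlotinib libraries were close together and below every other library. Cpt1a was 1.28-fold higher with sunitinib than with erlotinib (log2 0.36 ± 0.10, 95% interval 0.14 to 0.58, edgeR adjusted p = 0.0373). The difference between sorafenib and erlotinib was 0.34 ± 0.10 (edgeR adjusted p = 0.0917), and erlotinib was at -0.25 ± 0.10 from control (edgeR adjusted p = 0.264). Sunitinib and sorafenib were at 0.11 ± 0.10 and 0.09 ± 0.10 from control (edgeR adjusted p = 0.738 and 0.774). Cpt1b (Entrez 12895) was at 917, 791 and 780.0 CPM in control, 837, 803 and 798 with sunitinib, 830.0, 881 and 808 with sorafenib and 839, 885 and 928 with erlotinib. Each drug group overlapped control, with log2 fold changes of -0.03 ± 0.07, 0.02 ± 0.07 and 0.09 ± 0.07 for sunitinib, sorafenib and erlotinib (edgeR adjusted p = 0.921, 0.948 and 0.599). The other members of the shuttle, Cpt2, Slc25a20, Crat and Mlycd, which breaks down the CPT1 inhibitor malonyl-CoA, had intervals within 0.5 of 0 for each drug against control.

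**Figure D3:**
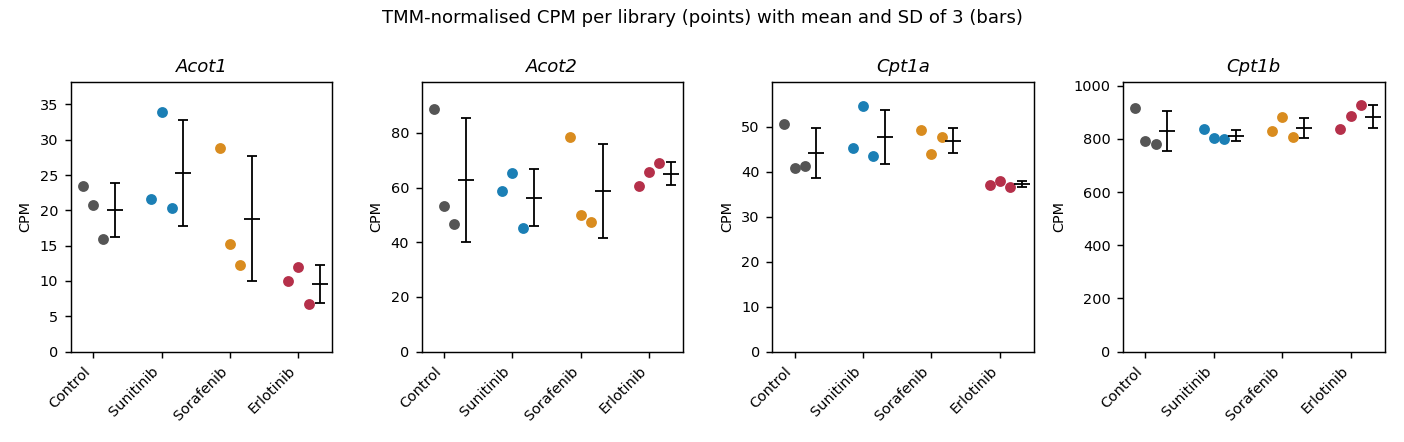
CPM in each library (points) with mean and SD of 3 (bars) for Acot1, Acot2, Cpt1a and Cpt1b, on axes that start at 0. Erlotinib libraries are lowest for Acot1 (6.68 to 12.0) and Cpt1a (36.7 to 37.9) and lie among the other groups for Acot2, while Cpt1b differs little between groups.

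In sunitinib against erlotinib, then, 2 of 43 members passed, both higher with sunitinib, against 11.9% of all genes, 6.35% higher and 5.52% lower. At an unadjusted p under 0.05 there were 12 (28.1% of all genes), and in 15 the libraries of the groups did not overlap (33.7%). DESeq2 called 4 members (10.8%), Acot1, Cpt1a, Ehhadh and Hadh, and limma 5 (12.7%), Acot1, Cpt1a, Hadh, Acaa2 and Rxra. By each count the members' share was close to that of all genes or below it. With the atrial score in the model neither edgeR call held (adjusted p = 0.0587 for Acot1 and 0.0636 for Cpt1a). With the fat marker score, the same mean over white and brown fat markers, in the model both held (adjusted p = 0.0148 and 0.0448). The brown fat markers in it include Cox7a1, at 2232 to 2809 TPM, and Cox8b, at 1911 to 2386 TPM. Ucp1 was at 0 in 10 libraries, so the score is not a measure of fat alone. Neither held without Sunitinib_1369 (adjusted p = 0.0928 and 0.144), Erlotinib_1374 (0.0708 and 0.0851), Erlotinib_1375 (0.0529 and 0.0798) or Erlotinib_1376 (0.122 and 0.129). Liver markers (4 of 8 tested) summed to 12.8 to 40.5 CPM with sunitinib and 12.6 to 21.6 with erlotinib. Of these, Alb was at 0 counts in 4 of the 12 libraries, and Fgb and Fga were each at 0 in 6. The part of liver markers in the Cpt1a result was not tested.

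Ehhadh was at 16.4, 24.98 and 23.5 CPM with sunitinib and at 13.2, 13.6 and 13.9 with erlotinib. The groups did not overlap, and the difference of 0.67 ± 0.23 on the log2 scale did not pass (edgeR adjusted p = 0.0805). Hadh differed by 0.33 ± 0.10 (edgeR adjusted p = 0.0590) and passed in its place in the model with the atrial score. Cd36 and Fabp3 differed by -0.24 ± 0.11 and -0.20 ± 0.09 on the log2 scale (sunitinib minus erlotinib), and Slc27a1 differed by 0.28 ± 0.11, none of them passing (edgeR adjusted p = 0.173, 0.151 and 0.119).

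Between sunitinib and sorafenib 0 of 43 members passed (0.0372% of all genes in edgeR), 3 were at an unadjusted p under 0.05 (9.86%), and DESeq2 (0.744%) and limma (0.0223%) called 0. Etfb, a subunit of the flavoprotein that takes electrons from the acyl-CoA dehydrogenases, was at 668, 656 and 769.8 CPM with sunitinib and 636, 619 and 546 with sorafenib. The groups did not overlap (log2 0.22 ± 0.09, edgeR adjusted p = 0.437). Slc27a1 had the smallest p, at 0.31 ± 0.11 (edgeR adjusted p = 0.383). Between sorafenib and erlotinib 0 passed (2.7% of all genes in edgeR, 1.56% higher and 1.14% lower), 3 were at an unadjusted p under 0.05 (19.4%), DESeq2 called 1, Acot1 (4.67%), and limma 0 (3.28%). The smallest p values there were those of Cpt1a, given above, and Rxra (log2 0.22 ± 0.08, edgeR adjusted p = 0.169). When all 4 groups were tested at once 0 members passed (5.45% of all genes in edgeR), 6 were at an unadjusted p under 0.05 (23.3%), DESeq2 called Acot1 (9.29%) and limma 0 (5.74%).

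The nuclear receptors were higher in the means with sorafenib than in control, and none passed. Ppara was at 87.8, 87.9 and 106 CPM in control and at 129, 115 and 110.4 with sorafenib. The groups did not overlap (log2 0.33 ± 0.12, edgeR adjusted p = 0.281). Pparg was at 14.95, 12.8 and 11.5 CPM in control and at 20.5, 16.9 and 16.8 with sorafenib, again with no overlap (log2 0.47 ± 0.17, edgeR adjusted p = 0.291). Rxra, their shared partner, was at 84.8, 74.0 and 78.5 CPM with sorafenib and 72.3, 65.4 and 70.4 in control (log2 0.19 ± 0.08, edgeR adjusted p = 0.377), and Ppard differed by 0.11 ± 0.08 (edgeR adjusted p = 0.590). These 4 were the only members whose sorafenib and control libraries did not overlap, against 16.3% of all genes. Endothelial cells, fat cells and macrophages also express Pparg. Endothelial markers (10 of 10 tested) summed to 1257 to 1458 CPM with sorafenib against 1064 to 1222 in control. White fat markers (9 of 10 tested) summed to 18.1 to 38.2 against 48.8 to 75.2, and macrophage markers (10 of 11 tested) to 181 to 236 against 301 to 329. Of the defining fat genes, Lep of white fat was at 0 in 4 of the 12 libraries and Ucp1 of brown fat at 0 in 10. With the fat marker score, which is not of fat alone, in the model the sorafenib value of Pparg was 0.28 on the log2 scale. The part of endothelial cells and macrophages was not tested. Rxra was at 85.2, 72.7 and 81.8 CPM with sunitinib, each above every control library (log2 0.20 ± 0.08, edgeR adjusted p = 0.405). With Acsl5, Rxra made up the 2 members without overlap between sunitinib and control (14.6% of all genes). Ppara was at 117, 112 and 102 CPM with sunitinib and 116, 83.1 and 106 with erlotinib, both overlapping control (log2 0.24 ± 0.12 and 0.12 ± 0.12, edgeR adjusted p = 0.500 and 0.689). Pparg with erlotinib was at 20.5, 12.9 and 20.2 CPM, with 1 library inside the control range (log2 0.46 ± 0.17, edgeR adjusted p = 0.222).

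Pdk4, Ucp3 and Ucp2 varied most between libraries of the same group. The SD within groups on the log2 scale was 0.98 for Pdk4, above that of 99.0% of all genes tested, 0.71 for Ucp3 and 0.48 for Ucp2, and fell to 0.07 for Acadvl, the very long-chain acyl-CoA dehydrogenase. Pdk4 (Entrez 27273), the kinase that inactivates pyruvate dehydrogenase, was at 1166, 2645 and 747 CPM in control, 750.1, 2824 and 653 with sunitinib, 3656, 699.6 and 1119 with sorafenib and 2432, 2459 and 3532 with erlotinib. All 3 erlotinib libraries and 1 library of each other group were at 2432 or more, and the other 6 libraries at 1166 or less. The erlotinib group overlapped control, and its log2 fold change of 0.89 ± 0.80 had a 95% interval of -0.95 to 2.72 (edgeR adjusted p = 0.656). For sunitinib it was -0.11 ± 0.80 and for sorafenib 0.26 ± 0.80 (edgeR adjusted p = 0.977 and 0.928). The intervals spanned large changes in both directions, so no difference of Pdk4 was detectable at this spread.

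Ucp3 (Entrez 22229), a mitochondrial carrier of muscle, was at 89.6, 80.6 and 32.5 CPM in control, 56.8, 108 and 40.4 with sunitinib, 93.4, 34.9 and 36.2 with sorafenib and 88.6, 56.9 and 103 with erlotinib. All groups overlapped, and its log2 fold changes were 0.02 ± 0.55, -0.30 ± 0.56 and 0.30 ± 0.55 for sunitinib, sorafenib and erlotinib (edgeR adjusted p = 0.994, 0.870 and 0.853). The library of each group that was highest for Ucp3 was also highest for Pdk4 except in control, where Control_1365 led for Ucp3 and Control_1366 for Pdk4. Ucp2, a relative found in many cell types, was at 98.3, 170.4 and 110.4 CPM in control and 134, 165 and 209.6 with erlotinib (log2 0.43 ± 0.37, edgeR adjusted p = 0.640).

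**Figure D4:**
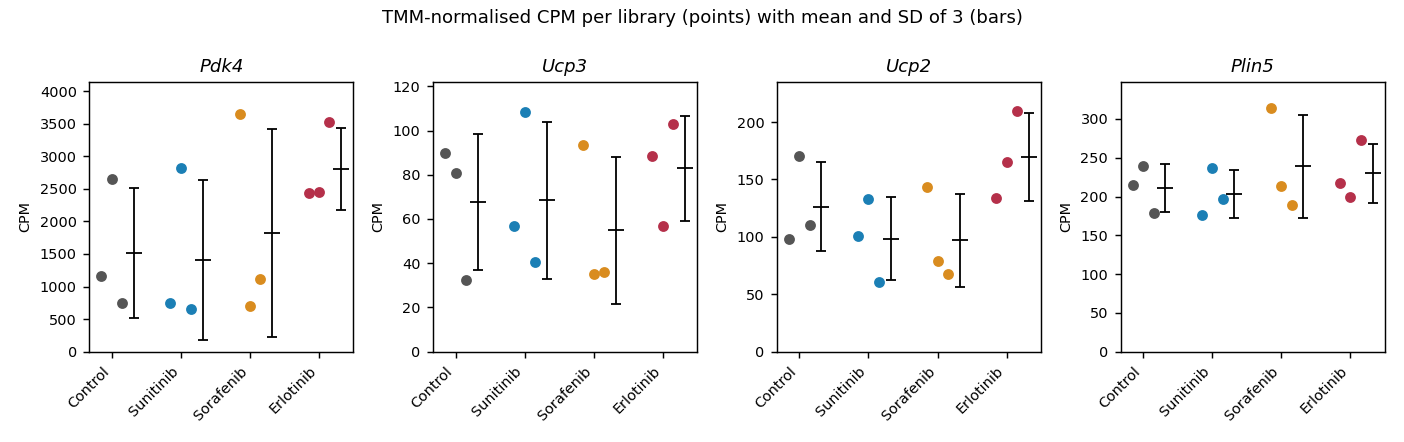
CPM in each library (points) with mean and SD of 3 (bars) for Pdk4, Ucp3, Ucp2 and the lipid droplet protein gene Plin5. Pdk4 is at 2432 or more in all 3 erlotinib libraries and in 1 library of each other group, and the error bars of all groups overlap.

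Genes of the triglyceride store also differed between libraries of 1 group. Plin5, which ties lipid droplets to mitochondria, was at 314 CPM in Sorafenib_1371 against 213 and 189 in the other sorafenib libraries. The lipase Pnpla2 was at 675 CPM there against 388 and 482. Neither passed in any comparison. Dgat1 was at 19.6, 20.3 and 18.2 CPM in control and at 21.4, 22.6 and 23.3 with erlotinib. Every erlotinib library was above every control library (log2 0.21 ± 0.08, edgeR adjusted p = 0.241). With Acot1, Cpt1a and Hadh it made up the 4 members without overlap between erlotinib and control (20.6% of all genes).

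Single libraries stood apart across the members. Sorafenib_1371 was the highest of its group for 38 of 43 members, against 36.6% of all genes tested. Control_1365 was the highest of its group for 30 (35.05% of all genes) and Control_1367 the lowest for 34 (32.3%). The mean log2 difference from the mean of each gene, over all 43 members, was 0.11, 0.05 and -0.17 in the control libraries, -0.06, 0.09 and -0.01 with sunitinib, 0.19, -0.13 and -0.10 with sorafenib and 0.01, -0.03 and 0.06 with erlotinib. Each group thus held values on both sides of 0. Sorafenib_1371 and Sorafenib_1373 had atrial scores of -1.95 and -1.88, and Control_1367 had the highest liver marker score, 3.16 (4 of 8 markers tested). The part of either in these values was not tested.

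**Figure D5:**
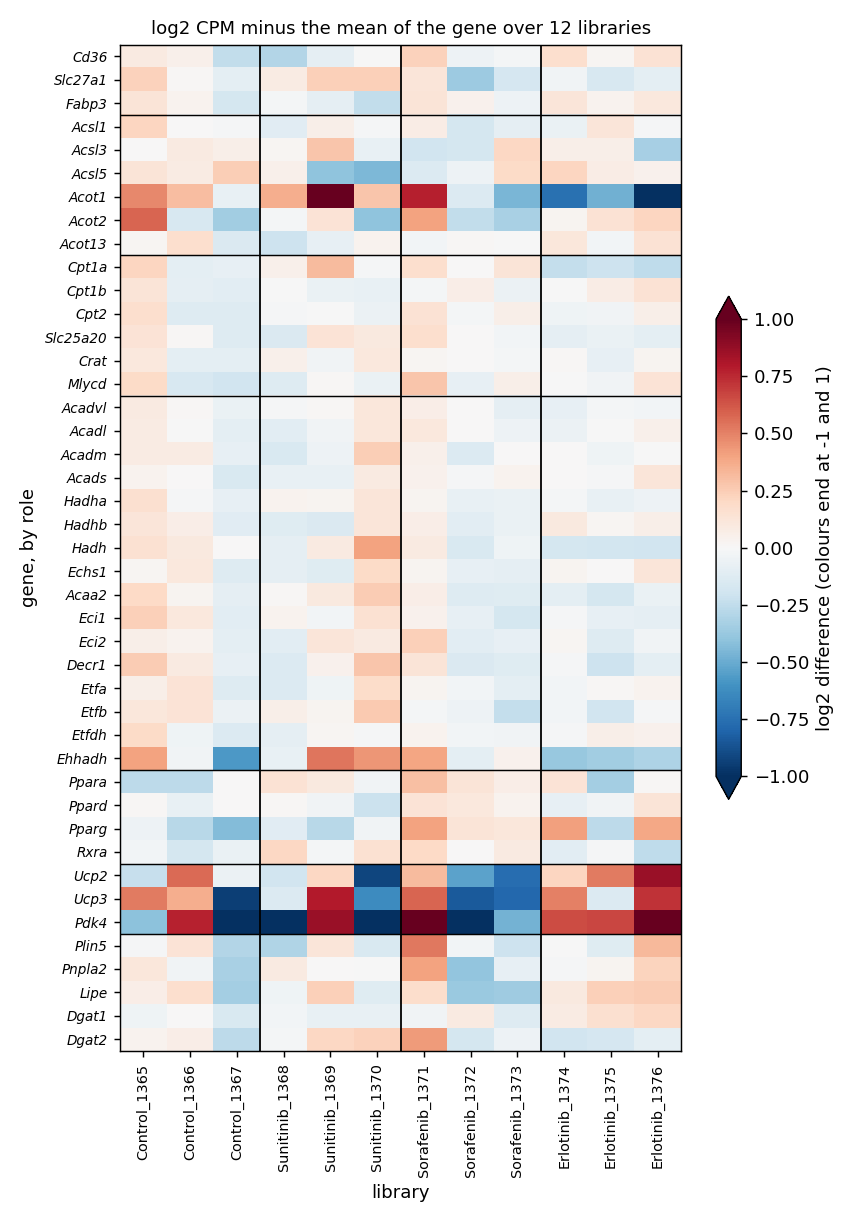
Log2 CPM of each member (rows, by role) in each library (columns) minus the gene's mean over 12 libraries, with colours ending at -1 and 1. Pdk4 and Ucp3 show the strongest contrasts within groups, Acot1 is low in the erlotinib columns, and Sorafenib_1371 is above its group for 38 of 43 members.

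Outside the 43 members, 118 genes of the wider pathway were listed, and 106 could be tested. Shares of all genes follow in brackets. Against control with sunitinib 0 passed in edgeR (0.0%), DESeq2 (0.489%) and limma (0.0%), and 15 were at an unadjusted p under 0.05 (10.9%). With sorafenib 0 passed in edgeR (0.00744%), 1 in DESeq2 (0.937%) and 0 in limma (0.0298%). At an unadjusted p under 0.05 there were 13 (12.4%). With erlotinib 1 passed in edgeR (0.29%), 3 in DESeq2 (2.03%) and 1 in limma (0.365%). At an unadjusted p under 0.05 there were 16 (15.6%). The gene that passed with erlotinib in edgeR was Pdp1, a phosphatase that activates pyruvate dehydrogenase and so opposes PDK4. It was at 42.7, 42.9 and 36.0 CPM in control and 25.6, 29.9 and 25.2 with erlotinib. All erlotinib libraries were lower (log2 -0.59 ± 0.10, edgeR adjusted p = 0.0447), and the call held in 10 of 20 alternatives. Between sunitinib and sorafenib 0 passed in edgeR (0.0372%), 4 in DESeq2 (0.744%) and 0 in limma (0.0223%). At an unadjusted p under 0.05 there were 14 (9.86%). Between sorafenib and erlotinib 1 was higher in edgeR (2.7%), Acot11, a call that held in 9 of 20 alternatives. There 6 passed in DESeq2 (4.67%) and 5 in limma (3.28%), and 17 were at an unadjusted p under 0.05 (19.4%). Between sunitinib and erlotinib 13 were higher with sunitinib and 2 lower, or 14.2% of those tested against 11.9% of all genes. In DESeq2 21 passed (10.8%), against a share of 17604 genes with no filter on low counts, and in limma 17 (12.7%). At an unadjusted p under 0.05 there were 34 (28.1%).

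Of the 5 tested genes of malonyl-CoA and carnitine supply 3 were higher with sunitinib, against 6.35% of all genes, a list too short to read against that share. Slc22a5, the carnitine transporter of the plasma membrane, was at 46.2, 50.9 and 46.8 CPM with sunitinib and 36.8, 37.0 and 34.2 with erlotinib (log2 0.41 ± 0.09, edgeR adjusted p = 0.0119), a call that held in 19 of 20 alternatives. Aldh9a1, of carnitine synthesis, and Slc25a29, a mitochondrial carrier, were higher by 0.59 ± 0.16 and 0.89 ± 0.25 (edgeR adjusted p = 0.0334 and 0.0391), in 13 and 10 of 20 alternatives. Pdp1 was higher with sunitinib by 0.72 ± 0.10 (edgeR adjusted p = 0.00285) and Acot11, another acyl-CoA thioesterase, by 0.52 ± 0.09 (edgeR adjusted p = 0.00590), and both held in all 20 alternatives. G0s2, the inhibitor of the lipase PNPLA2, was higher by 1.48 ± 0.40 (edgeR adjusted p = 0.0451), a call that held in 8 of 20 alternatives. The capillary protein Gpihbp1, which anchors lipoprotein lipase, was lower by 0.71 ± 0.20 on the log2 scale (adjusted p = 0.0498), as was Pdhx of the pyruvate dehydrogenase complex by 0.22 ± 0.06 (adjusted p = 0.0336), in 8 and 12 of 20 alternatives.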

How the data were processed

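Heart polyA RNA was sequenced in 12 libraries, 3 per group. The submitters' processing notes name RSEM, Picard 1.88, SAMtools 1.2 and mouse build mm9; no source used here gives the aligner, RSEM version, annotation or use of strand in counting. The authors deposited expected counts (estimated read counts per gene), TPM values and a scaled signal per gene and library. The listed TPM summed to 54.9% to 60.8% of the total of a full TPM table in each library, so part of the total lies in genes not analysed here. The deposited scaled signal, from the authors, was used only in limma, as log2(signal + 1), and the deposited TPM only for levels between genes and shares within families.

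After rounding to whole numbers, the expected counts of 21705 genes passed through edgeR 4.0.16 (R 4.3.3), where filterByExpr left 13440, with TMM scaling (factors 0.949 to 1.04). One robust quasi-likelihood model with a coefficient per group was fitted to all 12 libraries (8 residual degrees of freedom, biological coefficient of variation 0.128). The same fit was run on counts simulated from the fitted dispersions, with large changes set in the erlotinib group. That run cannot show how well changes as small as that of Cpt1a are found. Tests were two-sided, with Benjamini-Hochberg adjustment over all genes tested and a threshold of 0.05. CPM of single genes are TMM-normalised, and those of marker sums are not. The ± after a mean is the SD of 3 libraries, and ± after a log2 fold change is the SE of the fit.

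The members, lists, tests and named genes were chosen with earlier results of these data known. Named were members that passed in a comparison or, where fewer passed, those of smallest p, together with Cd36, Fabp3, Acsl1, Cpt1a, Cpt1b, Acadm, Ppara, Pdk4 and Ucp3 against control; other genes were named as examples of a count, after their values were seen. Alternatives were DESeq2 1.42.0, limma 3.58.1, RLE scaling, no filter, fits of only the groups compared, omission of the 20 genes of highest abundance, atrial or fat marker scores as covariates, and leaving out each library. Running them on the pathway genes outside the members, and adding Acot1 to Acot2, was chosen after seeing the data. In the GENCODE M21 annotation, of another build, 11 members share exon bases with another gene, and reads there may be split or shared. For 5 the overlap is at least 10% of their exon bases: Cpt1b (94.8%), Etfb (69.1%), Acadvl (45.0%), Lipe (15.7%) and Eci2 (10.8%). Expected counts of Cpt1b and Etfb were whole in every library, and those of Acadvl, Lipe and Eci2 fractional in 100% of libraries. Fractional counts were also found in 100% of libraries for Mlycd, 91.7% for Acsl3 and 41.7% for Acsl5.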

Additional observations from a re-analysis of the deposited data

How the results depend on the processing

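The 0 counts against control held in every alternative, except that DESeq2 called 1 member with erlotinib. Between sunitinib and erlotinib the count of 2 became 1 without the filter, 5 with only the groups compared, 1 with the atrial score, 4 in DESeq2, 5 in limma, and 0 to 5 when 1 library was left out. It was 0 without Sunitinib_1369, Erlotinib_1374 or Erlotinib_1376, 1 without Sunitinib_1370, Sorafenib_1373 or Erlotinib_1375, and 5 without Sunitinib_1368. Between sorafenib and erlotinib it was 1 with only the groups compared and 1 in DESeq2, and for any difference 1 in DESeq2 and 0 to 1 with 1 library left out (1 without Sunitinib_1368 or Sorafenib_1371). The cause was not tested. Acot1 also missed the threshold with no filter and without Sunitinib_1370 (adjusted p = 0.0546 and 0.0534), and Cpt1a without Sorafenib_1373 (adjusted p = 0.0532). Over all alternatives, the adjusted p between sunitinib and erlotinib ran from 0.000275 to 0.122 for Acot1 counted apart from Acot2 and from 0.0211 to 0.144 for Cpt1a.

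Small fold changes against control changed sign when 1 library was left out. The log2 range was -0.13 to 0.076 for Acadm, -0.071 to 0.041 for Cpt1b, -1.11 to 0.56 for Pdk4 and -0.47 to 0.29 for Ucp3 with sunitinib. With sorafenib it was -0.011 to 0.15 for Cd36, -0.039 to 0.11 for Fabp3, -0.024 to 0.094 for Cpt1b (-0.026 with the fat score) and -0.74 to 0.94 for Pdk4, where -0.74 was without Sorafenib_1371. With erlotinib it was -0.11 to 0.021 for Acsl1 and -0.039 to 0.55 for Ucp3. The labels give no pairing of libraries between groups, so no paired analysis was made. Depth was similar in all libraries; the spread between 3 libraries limits what could be detected, most of all for Pdk4, Ucp3, Ucp2 and Acot1.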
